A study of Homo sapiens with 4 samples.

Results

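Transcripts of 9 transcription factors that specify or mark lung and endoderm lineages were followed in H1792, an established human lung cancer cell line, with and without the degrader ACBI1. The factors were NKX2-1, FOXA1, FOXA2, GATA2, GATA6, SOX2, SOX4, SOX9 and KLF5, taken by symbol from tables of 61228 genes. Each of the 9 symbols was found once in every table. All cells were H1792 labelled with a WT genotype and were kept for 96 h either with the solvent DMSO (2 libraries, the controls) or with ACBI1 (2 libraries), at a dose that the labels write as 1 mM, an unusual concentration for a compound of this kind, so the unit is doubtful. ACBI1 is a PROTAC, a compound that brings the ubiquitin ligase VHL to proteins and so has them degraded. It acts on SMARCA2 and SMARCA4, which are the motor subunits of SWI/SNF chromatin remodelling complexes, and on the subunit PBRM1. A single cell line limits the samples as a model of lung tissue, and the labels do not say whether replicates were separate cultures, so the p-values measure the spread between these libraries, which may be technical.

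As background, lineage factors bind enhancers and keep a tissue's gene programme active. FOXA1 and FOXA2 are forkhead pioneer factors of the endoderm that can bind nucleosomal DNA, and GATA6 is a zinc finger factor of early endoderm and of the foregut. NKX2-1 is a homeodomain factor that defines lung and thyroid epithelium and drives surfactant genes in alveolar type II cells. SOX2 marks the proximal airway and SOX9 the distal tips of the branching lung. KLF5 is a zinc finger factor of epithelial progenitors, SOX4 is a widely expressed SOX factor, and GATA2 is best known from blood and endothelium. SWI/SNF complexes open the enhancers at which many such factors act.

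Of the 9 factors, 6 had enough counts to be tested, and SOX9 and KLF5 fell with ACBI1. SOX9 fell 10.0-fold and KLF5 2.62-fold. The levels of GATA6 and SOX4 were lower with ACBI1, and those of FOXA1 and GATA2 higher, without passing the threshold. NKX2-1 was silent in every library, while FOXA2 and SOX2 had between 0 and 7 counts per library.

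The 4 libraries held between 64281850 and 86010100 gene counts. A gene was called when edgeR's quasi-likelihood test gave a Benjamini-Hochberg adjusted p under 0.05 over all 19159 genes tested. Of these genes 3331 (17.4%) were called, 1294 higher (6.75%) and 2037 lower (10.6%), and the median log2 change of all of them was 0.01. The groups did not overlap in 63.2% of genes tested, so separation of the groups alone was common. Transcripts of the degrader's targets do not check the treatment, since it acts on protein: with DMSO and ACBI1, CPM (counts per 1000000 gene counts, scaled between libraries) were 250 ± 47.8 and 406 ± 11.3 for SMARCA4 and 23.6 ± 1.17 and 17.9 ± 0.639 for SMARCA2 (SD, n = 2). Neither was called (edgeR adjusted p 0.0583 for SMARCA4 and 0.163 for SMARCA2).

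Sequences upstream of the start sites were taken from RefSeq (GRCh38.p14), which gave entries for 7 of the 9 factors and 10 start sites in all. SOX9 and FOXA2 were not among them. The 250 bases before the start are shown for the called factor KLF5 (first of its 2 starts, chr13:73054726-73054975, plus strand), for GATA2, which was expressed and not called (first of its 2 starts, chr3:128493202-128493451, minus strand), and for SOX2, which was nearly silent (chr3:181711675-181711924, plus strand). Each runs 5′ to 3′, and capitals mark a TATA box, a GC box or a CCAAT box.
KLF5: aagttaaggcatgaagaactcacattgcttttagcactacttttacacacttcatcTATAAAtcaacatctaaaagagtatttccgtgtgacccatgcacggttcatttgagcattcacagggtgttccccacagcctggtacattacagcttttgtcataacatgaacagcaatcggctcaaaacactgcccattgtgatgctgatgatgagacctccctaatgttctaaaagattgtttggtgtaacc
GATA2: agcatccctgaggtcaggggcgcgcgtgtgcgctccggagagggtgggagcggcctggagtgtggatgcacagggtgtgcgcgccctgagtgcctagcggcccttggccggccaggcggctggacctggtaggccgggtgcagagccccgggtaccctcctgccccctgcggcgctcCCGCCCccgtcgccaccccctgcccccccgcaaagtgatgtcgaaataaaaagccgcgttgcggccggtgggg
SOX2: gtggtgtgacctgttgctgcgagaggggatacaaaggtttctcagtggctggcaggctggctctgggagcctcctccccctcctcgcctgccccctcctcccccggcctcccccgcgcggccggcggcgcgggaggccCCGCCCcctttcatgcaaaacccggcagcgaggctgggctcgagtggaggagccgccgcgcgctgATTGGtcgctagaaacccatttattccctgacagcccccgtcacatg
The first KLF5 start had 3 CpG dinucleotides and 40.8% G+C in this window and holds the letters TATAAA. The windows of GATA2 and SOX2 had 24 and 20 CpG and 72.8% and 68.8% G+C. The median over 35114 promoters in the table was 11 CpG and 58.0% G+C. The second KLF5 start had 27 CpG, more than 82.3% of promoters, in a window that lies mostly within KLF5 exons. The 2 starts of this gene thus differ in base content. The counts do not tell transcripts of the 2 starts apart. NKX2-1, with 0 counts, had 18 and 7 CpG at its 2 starts. Both strands were searched for 5 short motifs, each counted on its own. The GC box, spelled GGGCGG, was found in 5 of the 10 windows and in 42.6% of all promoters of the table. The CCAAT box was found in 5 windows and in 32.0% of promoters, and the TATA box, spelled as above, in 1 window and in 10.7%. The GATA motif, taken as AGATAA, was found in 1 window and in 9.17% of promoters. The AP-1 motif, taken as TGANTCA, was found in 0 windows and in 6.57% of promoters. These are matches of letters in a short window, not binding sites. Several windows also overlap annotated exons, so they are not purely upstream sequence. All 250 bases of the SOX4 window were exonic, 213 at the second KLF5 start, 180 for GATA6 and 137 at the second NKX2-1 start. FOXA1 had 99, the first NKX2-1 start 54 and SOX2 1. The windows of GATA2 and of the first KLF5 start had 0 exonic bases. SOX4, GATA6 and the second KLF5 start are among the 5 windows with a CCAAT box.

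SOX9, an HMG-box factor of distal lung progenitors that also directs cartilage formation, had the highest level per length of the 9 factors in control cells. It had 12237 and 15174 counts with DMSO and 1074 and 1583 with ACBI1. On the CPM scale it was at 150 and 211 in DMSO replicates 1 and 2 and at 11.99 and 24.1 in ACBI1 replicates 1 and 2. Both ACBI1 libraries were thus far under both controls, although the ACBI1 libraries themselves differed 2.01-fold. The log2 change was -3.32 (SE 0.38, edgeR adjusted p 0.00562). Leaving out ACBI1 replicate 1 gave -2.89, and leaving out ACBI1 replicate 2 gave -3.92, the latter a shift of just over 1.5-fold. SOX9 was called lower in all 4 fits with a library left out. SOX9 lies at chr17:72121020-72126420 on the plus strand (GENCODE 29), and exons of no other gene overlap its 3935 exonic bases.

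KLF5, at chr13:73054976-73077542 on the plus strand, showed the tightest replicates among the called pair. It was at 26.8 and 27.5 CPM in DMSO replicates 1 and 2 and at 9.94 and 10.8 CPM in ACBI1 replicates 1 and 2. These levels rested on 2179 and 1979 counts against 890 and 708. The groups were well apart, with a gap between them many times the distance between replicates. The log2 change was -1.39 (SE 0.18, edgeR adjusted p 0.00750), and KLF5 was called lower in all 4 fits with a library left out, with log2 changes from -1.46 to -1.32. The 2 of 6 tested factors that were called lower stand beside 10.6% of all genes, a comparison of small numbers.

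**Figure D1:**
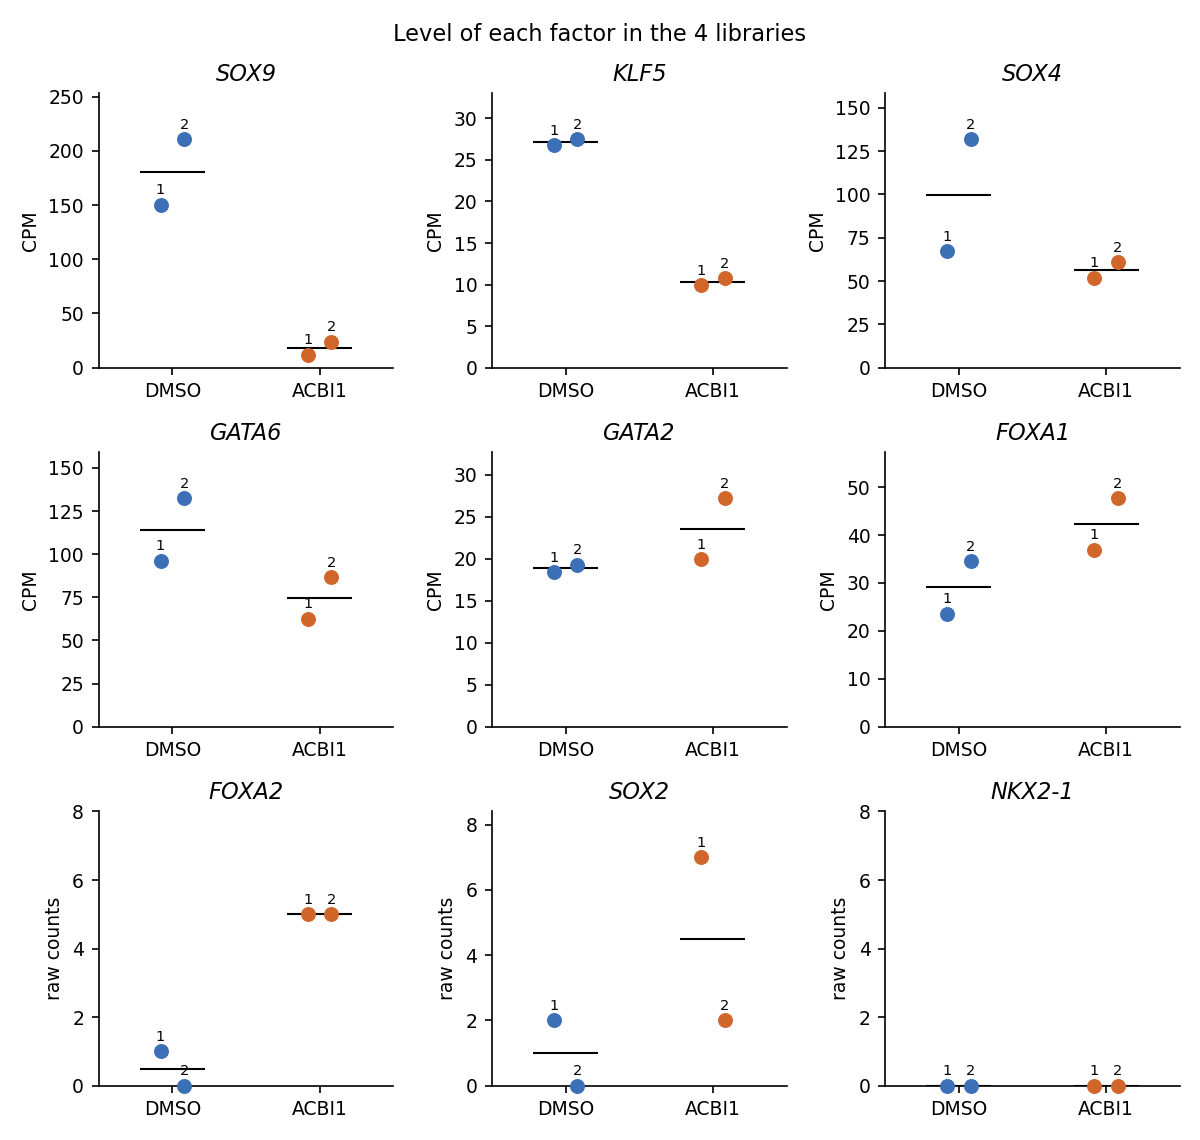
Level of each factor in each library, in CPM for the 6 tested factors and in raw counts for FOXA2, SOX2 and NKX2-1, with DMSO in blue, ACBI1 in orange, replicate numbers beside the points and a bar at the group mean (n = 2); each vertical axis starts at 0. SOX9 drops from 150 and 211 to 11.99 and 24.1 CPM, KLF5 from 26.8 and 27.5 to 9.94 and 10.8 CPM, and NKX2-1 stays at 0 counts.

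SOX4, an HMG-box factor of another SOX subgroup, separated the 2 control libraries from each other more than the groups. It was at 67.3 CPM in DMSO replicate 1 and 132 CPM in DMSO replicate 2, against 52.01 and 60.9 CPM in ACBI1 replicates 1 and 2. The groups did not overlap, but DMSO replicate 1 was close to the ACBI1 libraries and the controls differed 1.96-fold. The log2 change was -0.82 (SE 0.32, edgeR adjusted p 0.131), which was not called. Without DMSO replicate 1 it was -1.22 and called lower (edgeR adjusted p 0.00152), and without DMSO replicate 2 it was -0.26 (edgeR adjusted p 0.554), so the size of the difference rests on which control is used. SOX4 lies at chr6:21592768-21598619 on the plus strand.

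GATA6 was second in level per length among the 9 factors in control cells. It was at 96.1 and 132 CPM in DMSO replicates 1 and 2 and at 62.6 and 86.6 CPM in ACBI1 replicates 1 and 2. The groups did not overlap, but the gap between them was smaller than the distance between the replicates of either group. The log2 change was -0.62 (SE 0.24, edgeR adjusted p 0.130). Without DMSO replicate 1 it was -0.83 and called lower (edgeR adjusted p 0.0279), while the fits without each of the other libraries did not call it. GATA6 lies at chr18:22169443-22202528 on the plus strand, and 14.2% of its exonic length is overlapped by exons on the other strand, GATA6-AS1 among them, which matters because the strand setting of the counting is not given.

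GATA2 was at 18.4 and 19.3 CPM in DMSO replicates 1 and 2 and at 19.9 and 27.2 CPM in ACBI1 replicates 1 and 2. ACBI1 replicate 1 was within 1 CPM of a control, and ACBI1 replicate 2 alone stood higher. The log2 change of 0.32 (SE 0.21, edgeR adjusted p 0.334) was 0.07 without ACBI1 replicate 2. GATA2 lies at chr3:128479427-128493185 on the minus strand.

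FOXA1, at chr14:37589984-37596059 on the minus strand, was the one forkhead factor of the FOXA pair with a substantial level. It was at 23.6 and 34.5 CPM in DMSO replicates 1 and 2 and at 37.0 and 47.7 CPM in ACBI1 replicates 1 and 2. Its ACBI1 libraries were both above both controls, with a gap smaller than the distance between replicates of either group. The log2 change of 0.54 (SE 0.24, edgeR adjusted p 0.172) was not called, and leaving out a control gave 0.30 (without DMSO replicate 1) or 0.84 (without DMSO replicate 2, edgeR adjusted p 0.0510).

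**Figure D2:**
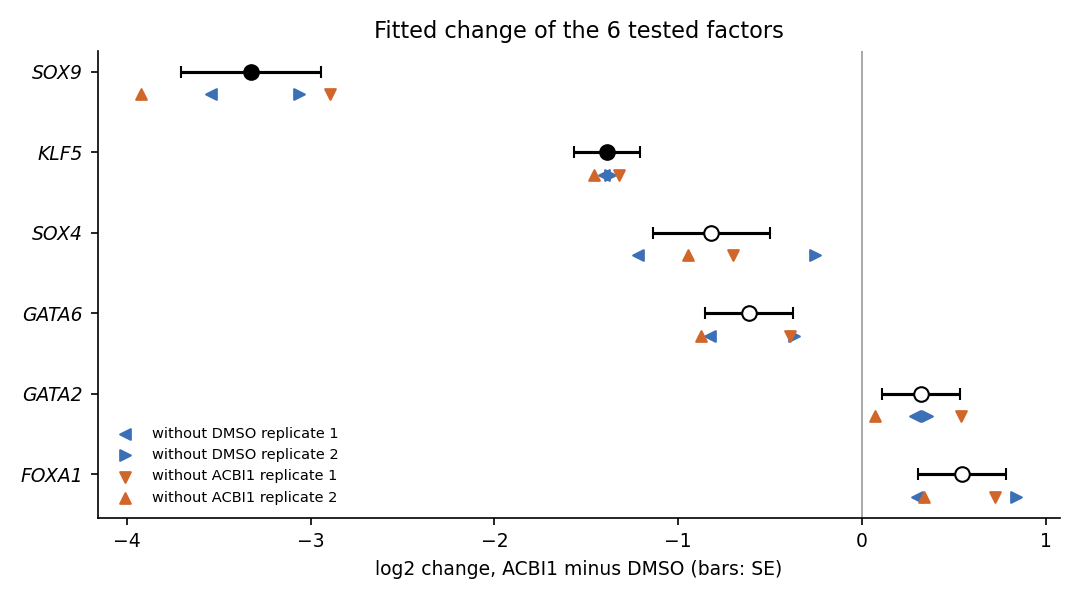
Fitted log2 change (ACBI1 minus DMSO, horizontal axis) of the 6 tested factors, with filled circles for called and open circles for not called factors, bars for the SE, and triangles for the fits with 1 library left out. SOX9 at -3.32 and KLF5 at -1.39 keep their place, while SOX4 moves between -1.22 and -0.26 with the control library that is left out.

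The 3 other factors were at or near silence. NKX2-1 (chr14:36516392-36521149, minus strand) had 0 counts in all 4 libraries, which allows at most 0.0335 to 0.0457 CPM per library at a floor of 3 counts. Exons of other genes overlap 12.7% of its exonic length in GENCODE 29; the annotation behind the counts is not given, and reads that it assigns to more than 1 gene are missing from the tables. Its antisense transcript NKX2-1-AS1 and the neighbouring SFTA3 also had 0 counts in each library. Intervals and floors cover counting error only.

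FOXA2 (chr20:22581005-22585455, minus strand) had 1 and 0 counts with DMSO and 5 and 5 with ACBI1. That is at most 0.0762 CPM per library. The ratio of ACBI1 to DMSO counts per library size was 9.89, with a 95% exact counting interval from 1.41 to 429, and a fit on every gene with a count gave an edgeR adjusted p of 0.269. SOX2 (chr3:181711924-181714436, plus strand) had 2 and 0 counts with DMSO and 7 and 2 with ACBI1, and its ratio of 4.45 had an interval from 0.921 to 42.3. These intervals leave out the spread between libraries, and neither factor passed the filter on low counts. LINC00261, the noncoding gene next to FOXA2, had 2, 0, 3 and 1 counts, and SOX2-OT, the noncoding gene that spans SOX2, had 10, 6, 10 and 1, in the order DMSO replicates 1 and 2 and ACBI1 replicates 1 and 2.

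Levels of different genes were compared per kilobase of exon. In control cells SOX9 was highest with 45.9 ± 10.9 CPM per kilobase, followed by GATA6 with 28.97 ± 6.52 and SOX4 with 17.02 ± 7.81 (SD, n = 2). FOXA1 with 7.30 and KLF5 with 6.97 came next, and their replicates overlapped, so their order is not resolved. GATA2 was lowest of the 6 with 4.23. With ACBI1, GATA6 was at the top with 18.9 CPM per kilobase, FOXA1 had 10.6 and SOX4 9.64, with overlapping replicates. GATA2 at 5.29 and SOX9 at 4.59 also overlapped, and KLF5 was lowest with 2.66. SOX9 thus went from the highest level of the tested factors to one that overlapped with GATA2, near the lower end.

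**Figure D3:**
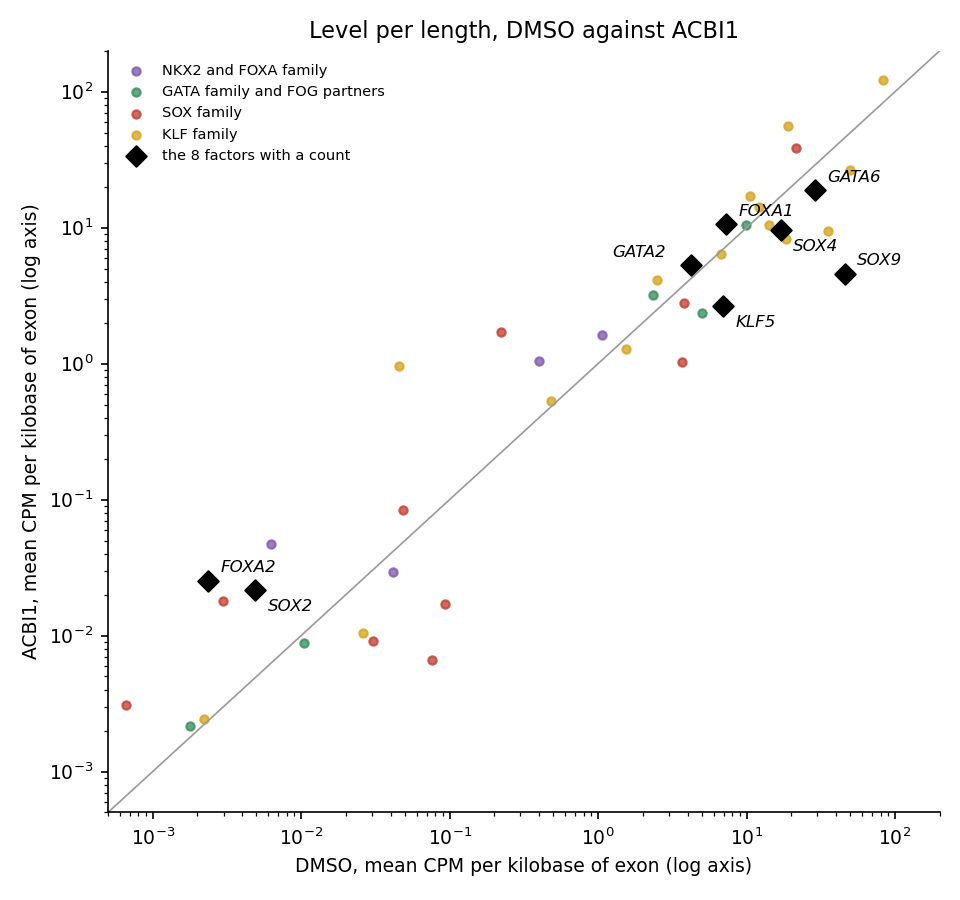
Mean level per kilobase of exon with DMSO (horizontal) and ACBI1 (vertical), both on log axes, for the 8 factors with a count (black diamonds) and the other genes of their families (colours); genes at 0 in either group are left out and the grey line marks equal levels. SOX9 moves from 45.9 to 4.59 CPM per kilobase and sits farthest from the line among the 6 tested factors, and FOXA2 and SOX2 are at 0.0254 or less in both groups.

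Transcripts next to or antisense to these genes were read beside them. SOX9-AS1 spans SOX9 on the other strand and starts 116 kb from the SOX9 start. It was at 0.810 and 1.36 CPM with DMSO and 0.234 and 0.229 CPM with ACBI1, a log2 change of -2.22 (edgeR adjusted p 0.0257). CASC15, a noncoding gene 72.0 kb from SOX4, was at 0.503 and 1.04 CPM with DMSO and 0.156 and 0.107 CPM with ACBI1, a log2 change of -2.52 (edgeR adjusted p 0.0319). Both were called lower, on low counts, and each was called in 1 of 4 fits with a library left out, the one without DMSO replicate 1; without DMSO replicate 2 the log2 change was -1.80 for SOX9-AS1 and -1.91 for CASC15. GATA6-AS1 had a log2 change of 0.08 (edgeR adjusted p 0.918), GATA2-AS1 one of -0.68 (edgeR adjusted p 0.284) and TTC6, whose start lies beside that of FOXA1, one of 0.71 (edgeR adjusted p 0.182). None of these 3 was called. LINC01152, at chr17:72030291-72041297 on the same strand as SOX9, had 2, 1, 5 and 1 counts.

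Among relatives of the 9 factors, SOX and KLF genes went both ways. The called counts of each list that follows stand beside 6.75% of all genes called higher and 10.6% called lower, comparisons of small numbers. Of 16 other SOX genes, 8 were tested, 2 were called higher and 1 lower, and the median log2 change of the 8 was -1.07. SOX12, which shares a subgroup with SOX4, rose from 106 and 92.5 CPM with DMSO to 188 and 172 CPM with ACBI1, a log2 change of 0.85 (edgeR adjusted p 0.0226). SOX18, an endothelial factor, rose from 0.491 and 0.333 CPM to 4.44 and 1.97 CPM, and its log2 change was 2.95 (edgeR adjusted p 0.0175), or 2.25 without ACBI1 replicate 1. SOX13 fell from 23.5 and 30.7 CPM to 7.09 and 8.20 CPM, a log2 change of -1.83 (edgeR adjusted p 0.00665). Of the other SOX genes, 5 had 0 counts in every library, SOX17, the factor of early definitive endoderm, among them. SOX8, the closest relative of SOX9 beside SOX10, had 1, 1, 6 and 6 counts, and SOX10 had 0 in each library. SOX12 was called in 1 of the 4 fits with a library left out, SOX13 and SOX18 in all 4.

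Of 16 other KLF genes, 13 were tested, 2 were called higher and 3 lower, with a median log2 change of 0.15. KLF4, a factor of epithelial differentiation, fell from 140 and 117 CPM with DMSO to 23.9 and 45.6 CPM with ACBI1, a log2 change of -1.89 (edgeR adjusted p 0.0153). KLF9 had a log2 change of -1.16 (edgeR adjusted p 0.00909) and KLF10, a gene induced by TGF-beta, one of -0.91 (edgeR adjusted p 0.0217). KLF16 rose from 64.0 and 49.0 CPM to 160 and 169 CPM, a log2 change of 1.54 (edgeR adjusted p 0.00673). KLF1, the erythroid member, had 4 and 7 counts with DMSO and 165 and 82 with ACBI1, a log2 change of 4.39 (edgeR adjusted p 0.00657). KLF6 was the most abundant of the list, at 509 ± 22.5 CPM in control cells and 742 ± 180 CPM in treated cells (SD, n = 2), and was not called (edgeR adjusted p 0.143). With 1 library left out, the list had 2 or 3 members called higher and 1 to 3 lower.

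In the other families few genes were measurable. The list of GATA relatives and their partners had 3 of 7 genes tested. TRPS1, an atypical GATA protein that represses transcription, fell from 48.3 and 61.9 CPM to 20.8 and 31.2 CPM, a log2 change of -1.08 (edgeR adjusted p 0.0334), and lost the call without ACBI1 replicate 1, at -0.81. ZFPM1, a partner of GATA factors and the most abundant gene of that list, was at 61.0 ± 3.74 and 64.0 ± 6.59 CPM (SD, n = 2). GATA4, the close relative of GATA6, had 2 counts in ACBI1 replicate 2 and 0 elsewhere. Among 7 NKX2 and FOXA relatives, 2 were tested and 0 called by edgeR, 1 of them with an unadjusted p under 0.05. FOXA3 had a log2 change of 1.39 (SE 0.40; edgeR adjusted p 0.0629), and NKX2-8, the most abundant, one of 0.62 (SE 0.37; edgeR adjusted p 0.290). DESeq2, and edgeR without a filter or with the replicate number as a block, each called 1 of the 2 higher, and limma-voom called 0.

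Other endoderm and foregut factors included 8 tested genes of 17, and the 3 called were each higher, with a median log2 change of 0.74 over the 8, where 6.75% of all genes were called higher. ONECUT1, a factor of liver and pancreas, rose from 0.0859 and 0.153 CPM to 1.56 and 1.28 CPM, a log2 change of 3.57 (edgeR adjusted p 0.00803). ONECUT2 rose from 4.82 and 4.59 CPM to 13.9 and 13.3 CPM, a log2 change of 1.53 (edgeR adjusted p 0.0104), and EOMES, a T-box factor of early endoderm, from 0.651 and 0.653 CPM to 2.62 and 2.38 CPM, a log2 change of 1.94 (edgeR adjusted p 0.0163). The most abundant, HHEX, a foregut homeobox gene, was at 18.8 ± 1.15 and 18.2 ± 2.84 CPM (SD, n = 2). CDX1 and GSC had 0 counts in each library. Without ACBI1 replicate 1, 2 of the list were called, and EOMES was not.

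Of 25 other airway factors, 16 were tested, 2 were called higher and 4 lower, with a median log2 change of -0.43. TP63, the basal cell factor, fell from 1.71 and 1.28 CPM to 0.201 and 0.183 CPM, a log2 change of -2.95 (edgeR adjusted p 0.00932). MYB, which acts in the forming ciliated cell, rose from 0.479 and 0.167 CPM to 4.40 and 2.82 CPM, a log2 change of 3.47 (edgeR adjusted p 0.0146) that was 4.43 without DMSO replicate 1. TBX4 had a log2 change of 1.11 (edgeR adjusted p 0.0404) and MEIS1 one of -1.08 (edgeR adjusted p 0.0294), and each was called in 1 of the 4 fits with a library left out. ETV5, the most abundant, was not called (edgeR adjusted p 0.0985). The neuroendocrine factors NEUROD1 and INSM1 had 0 counts in each library.

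**Figure D4:**
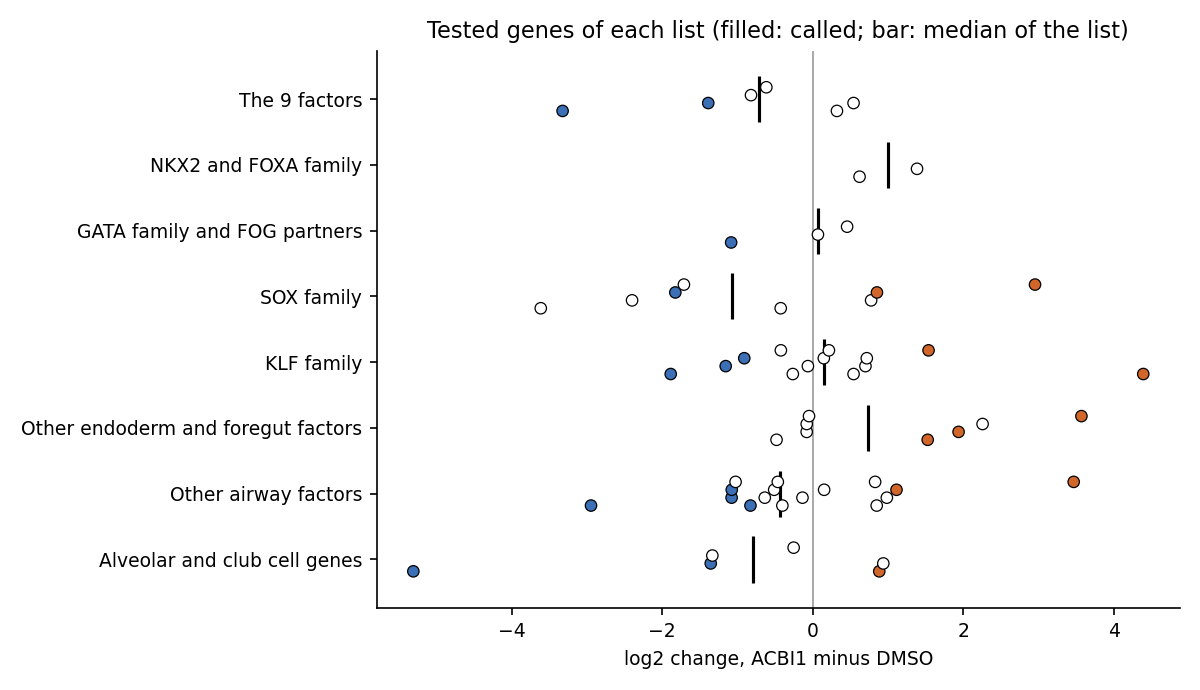
Log2 change (ACBI1 minus DMSO, horizontal axis) of every tested gene in 8 lists, with filled points for called genes (orange higher, blue lower), open points for genes not called and a bar at the median of the tested genes of a list. The 6 tested factors have a median of -0.72, and SOX and KLF genes lie on both sides of 0.

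Genes of the alveolar and club cell programme, in which NKX2-1 acts, differed widely in level. Of 20 such genes, 6 were tested, 1 was called higher and 2 lower, and 9 had at most 3 counts in every library. The surfactant genes SFTPA1, SFTPA2, SFTPB and SFTPC had at most 9 counts in any library, SFTPD had 1 and 1 with DMSO and 24 and 5 with ACBI1, and the club cell gene SCGB1A1 had 0. ABCA3, the lipid transporter of lamellar bodies, was the most abundant, at 263 and 220 CPM with DMSO and 371 and 520 CPM with ACBI1, a log2 change of 0.88 (edgeR adjusted p 0.0457) that was called in 1 of the 4 fits with a library left out. AGER, a gene of alveolar type I cells, had a log2 change of -1.35 (edgeR adjusted p 0.0351), also called in 1 of these 4 fits, and the receptor kinase gene ROS1 had 31 and 54 counts with DMSO and 2 and 0 with ACBI1. The log2 change of ROS1 was -5.31 (edgeR adjusted p 0.0154), or -8.36 and -4.57 when ACBI1 replicate 1 or 2, in that order, was left out. LPCAT1, an enzyme of phosphatidylcholine synthesis, was at 113 and 147 CPM with DMSO and 84.8 and 134 CPM with ACBI1 and was not called (edgeR adjusted p 0.547). Among 24 gastric and hepatic endoderm genes, 13 had 0 counts in every library and 4 were tested. SERPINA1 fell from 2.16 and 1.18 CPM to 0.0335 and 0.0305 CPM (edgeR adjusted p 0.00461), and MUC6, a gastric mucin gene, from 2.84 and 3.63 CPM to 0.0223 and 0.152 CPM. The log2 change of MUC6 was -5.28 (edgeR adjusted p 0.00920), or -4.38 and -7.09 when ACBI1 replicate 1 or 2, in that order, was left out. TF, the transferrin gene, with the highest mean CPM of the list over the 4 libraries, was not called (edgeR adjusted p 0.584).

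Epithelial markers and markers of other cell types moved between the groups as well. Of 9 epithelial keratin and adhesion genes, 8 were tested and 4 called lower, all of them keratins, where 10.6% of all genes were called lower. KRT7 fell from 677 and 680 CPM to 179 and 60.3 CPM, a log2 change of -2.50 (edgeR adjusted p 0.0229), or -3.48 without ACBI1 replicate 1. KRT19 had a log2 change of -2.51 (edgeR adjusted p 0.0171), KRT8 one of -1.42 (edgeR adjusted p 0.00753) and KRT18 one of -1.14 (edgeR adjusted p 0.0136). MUC1 was also lower without being called (log2 change -1.10, edgeR adjusted p 0.291), and its groups overlapped. The other tested members of the list differed in the opposite direction, also without being called. EPCAM was at 5.38 and 2.78 CPM with DMSO and 15.6 and 4.83 CPM with ACBI1 (log2 change 1.32, edgeR adjusted p 0.179), and the splicing regulators ESRP2 and ESRP1 had log2 changes of 0.59 and 0.37. Without a filter, with the replicate block, and without DMSO replicate 1 or ACBI1 replicate 2, 1 gene of the list was called higher. CDH1, which encodes E-cadherin, had 4, 16, 7 and 6 counts, so this adhesion marker of epithelium was nearly absent in both groups. Of 12 basal and squamous genes 5 were tested, and ITGB4 was called lower (log2 change -2.15, edgeR adjusted p 0.0171), while PKP1, the most abundant, was not (edgeR adjusted p 0.292) and KRT5, KRT6A and KRT14 had 0 counts. DSG3 and DSC3 were higher with ACBI1 (log2 changes 0.99 and 0.59) and NGFR was lower (-1.25), each without being called.

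Fibroblast and smooth muscle markers summed to 356 and 790 CPM in DMSO replicates 1 and 2 and to 71.7 and 223 CPM in ACBI1 replicates 1 and 2, most of it COL1A1. Of the 7 genes 5 were tested, and DCN, LUM and PDGFRA were called lower, or 2 to 5 genes with 1 library left out. The sum was higher in DMSO replicate 2 than in DMSO replicate 1. SOX4 was also higher there by 1.96-fold, FOXA1 by 1.46-fold, SOX9 by 1.40-fold and GATA6 by 1.38-fold. GATA2 and KLF5 barely differed between the controls, at 1.05-fold and 1.03-fold. Endothelial markers summed to 12.8 and 49.0 CPM with DMSO, nearly all of it PECAM1, and to 0.123 and 0.137 CPM with ACBI1. KDR made up most of the sum in ACBI1 replicate 1, at 0.112 CPM. In ACBI1 replicate 2 KDR was at 0.0610 CPM and PECAM1 at 0.0457 CPM. Of the 6 genes 3 were tested and 2 called lower. These counts and those of the fibroblast markers stand beside 10.6% of all genes called lower. PECAM1 had 997 and 3461 counts with DMSO and 1 and 3 with ACBI1, VWF had 24 and 23 with DMSO and 0 and 0 with ACBI1, and CDH5 had 2, 4, 0 and 0. Blood cell markers summed to at most 1.00 CPM, with CD3E and HBB at 0 counts, and CD14, the most abundant, was not called (edgeR adjusted p 0.237). HBA1, the 1 of 3 tested that was called, had 2, 1, 26 and 10 counts. It was called in 0 of the 4 fits with a library left out and not by DESeq2, and its near-identical copy HBA2 makes its counts uncertain. Of 5 neuroendocrine markers 2 were tested, and SYP rose from 0.0737 and 0.181 CPM to 4.91 and 4.96 CPM (log2 change 5.28, or 6.03 without DMSO replicate 2; edgeR adjusted p 0.00361), with GRP at 0 counts. NCAM1, the other one tested, had 10 and 70 counts with DMSO and 1 and 12 with ACBI1 (log2 change -2.57, edgeR adjusted p 0.214), and 1 gene of this list was called lower without DMSO replicate 1, without a filter and with the replicate block. The part of these markers in the changes of SOX9 and KLF5 was not tested, and in bulk libraries fewer cells of a type and less RNA per cell cannot be told apart.

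The genes most like SOX9 across the 4 libraries were sought among the 11160 genes whose mean reached 5 CPM, by the smallest Euclidean distance between log2 CPM values centred on each gene's mean. They were ITGB8, an integrin chain that activates TGF-beta (distance 0.146), PTGS2, which encodes cyclooxygenase-2 (0.275), ZC3H12A, which encodes an RNase that degrades inflammatory mRNAs (0.289), the noncoding gene ENSG00000272482 (0.320) and GALNT5, a glycosyltransferase gene (0.368). ITGB8 was at 51.7 and 78.5 CPM with DMSO and 4.24 and 7.79 CPM with ACBI1. These genes were picked for likeness to SOX9, so their fall is a description, and 4 libraries cannot tell many genes with a similar fall apart.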

How the data were processed

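Total RNA of H1792 cells was sequenced in 4 libraries, 2 per group, after silica column isolation and with a kit sold for DNA libraries, per the labels' protocols. The authors deposited raw read counts per gene symbol, not normalized. TopHat2 2.1.1, HTSeq 0.11.0 and the build hg38 are named in the submitters' processing notes. The annotation and strand setting are not given in the sources used here. Reads assigned to no gene (13.9% to 15.4% of those listed) stayed out of library sizes.

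Genes were filtered with filterByExpr (minimum count 10, minimum total 15) and scaled by TMM. They were tested two-sided with edgeR 4.0.16 in R 4.3.3 (glmQLFit, glmQLFTest) on treatment alone. The scripts were tested on simulated data. There, 17.2% of genes set to a log2 change of 1 in either direction were called, and 92% of those set to 2. The factors that were not called had smaller fitted changes, so they may still differ. CPM use TMM-scaled totals, and the SE is the log2 change divided by the square root of F. Replicates differed by more than sampling noise (chi-square per degree of freedom 158 for DMSO and 102 for ACBI1). Alternatives were other scalings, filters, DESeq2 1.42.0, limma-voom (limma 3.58.1), a threshold of 0.01, a replicate block and each library left out. In the last case the lone library is assumed to vary like the other group. Positions, exon lengths and overlaps came from GENCODE 29 (GRCh38), which holds 59.6% of the symbols in the tables, so the counts came from another annotation or naming, and levels per kilobase and overlap shares are approximate.

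The members, lists, motifs and tests were chosen with earlier results of these data known. The text names all 9 factors and, from each list, up to 4 called genes ranked by size of change, the gene of highest mean CPM, and every neighbouring or antisense transcript. KLF10, SFTPD, LPCAT1, EPCAM, MUC1, ESRP1, ESRP2, DSG3, DSC3, NGFR, KDR and NCAM1 were chosen after their values were seen. So were genes named for their low or zero counts and those within 1000 kb of a factor.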

Additional observations from a re-analysis of the deposited data

How the results depend on the processing

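SOX9 and KLF5 were called lower under every alternative that was run, with log2 changes of SOX9 from -3.42 to -3.24 and of KLF5 from -1.40 to -1.30 over 7 other scalings, filters and tools. The number of genes called was 3331, against 5518 without a filter, 783 at a threshold of 0.01 and 1379 to 4292 with 1 library left out. Of 6 factors tested 2 were called, against 4 of 8 without a filter, where SOX4 (log2 change -0.83) and GATA6 (-0.63) were added. The fit without a filter called 5518 of all 32871 genes with a count. The number of factors called was not the same in every fit with 1 library left out. The leave-one-out log2 changes ranged from -1.22 to -0.26 for SOX4 and from -0.88 to -0.37 for GATA6. The cause of these shifts was not tested. The replicate numbers share no stated batch. With the replicate number as a block, 7909 of 19159 genes and 5 of 6 tested factors were called. FOXA1 at 0.56, GATA6 at -0.62 and SOX4 at -0.74 passed the threshold in this setting, where many more of all genes did too. Across genes, the difference between replicates 1 and 2 correlated between the groups (r 0.518), a hint from the data and not from the design. NKX2-1, FOXA2 and SOX2 did not pass the filter, and their depth limits what can be said of a change.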

Other observations

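Genes whose start lies within 1000 kb of a factor's start were read as a last view of each locus. Around GATA2, 21 such genes were tested, 4 were called higher and 5 lower (42.9% called). MCM2, a subunit of the replicative helicase, rose from 46.7 to 151 CPM (edgeR adjusted p 0.00931), and SEC61A1, a subunit of the protein channel of the endoplasmic reticulum, fell from 700 to 253 CPM (edgeR adjusted p 0.00768), while GATA2 itself was not called. Around GATA6, 9 were tested and 4 called (44.4%), each of them higher, among them CABLES1 (log2 change 1.70, edgeR adjusted p 0.00384) and RBBP8, which encodes the DNA end-resection factor CtIP (log2 change 1.07, edgeR adjusted p 0.0222), whereas GATA6 itself had a log2 change of -0.62 that was not called. Around SOX9 and SOX4, 3 and 1 were tested, and SOX9-AS1 and CASC15 were the ones called. Around FOXA1, 1 of 6 was called, SSTR1, a somatostatin receptor gene (log2 change -3.34, edgeR adjusted p 0.0294). Around KLF5, edgeR called 0 of 6, with 1 at an unadjusted p under 0.05 and 0 called by DESeq2 and by limma-voom. Around NKX2-1 and FOXA2, edgeR called 0 of 8 and 0 of 6, with 2 at an unadjusted p under 0.05 in each window, 1 called by DESeq2 in each and 0 by limma-voom. Around SOX2, edgeR called 0 of 3, with 0 at an unadjusted p under 0.05 and 0 called by either other tool. Over all genes 17.4% were called. Neighbouring genes are not independent, and the differences between loci were not tested.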
